A study of Mus musculus with 24 samples.

Results

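The transforming growth factor beta (TGF-beta) genes described here are 10 genes of the mouse choroid: the ligand genes Tgfb1, Tgfb2, Tgfb3 and Inhba, the gene of the latency protein Ltbp1, the receptor genes Tgfbr1 and Tgfbr2, the decoy receptor gene Bambi, the signal transducer gene Smad3 and the inhibitory Smad7. They were taken as a fixed list of mouse symbols, each of which matched 1 Ensembl gene, and they are 10 of the 56065 genes in the deposited table. All 10 were above 0 in all 24 libraries. The study sequenced choroidal RNA of wild type mice and of littermates homozygous for a constitutional Ceacam1 deletion that removes the first exons of the gene, both on a C57BL/6J background. Choroid here stands for the pigment epithelium, choroid and sclera, which remain together once the retina is lifted off the eye cup. There were 4 libraries of wild type mice without laser, 4 of Ceacam1-/- mice without laser, 9 of wild type mice with laser and 7 of Ceacam1-/- mice with laser. The laser protocol placed 6 spots per eye (150 mW, 200 µm, 100 ms), a standard way to rupture the membrane under the pigment epithelium and start choroidal neovascularization. The study's methods describe its mice as young adults of both sexes, and they describe the comparison of genotypes without laser only. That age, background and dissection also hold for the laser libraries was taken over from there, since the labels give their genotype and laser treatment but neither age, sex nor the time after laser. The study set aside an outlier library before its own comparison, without a name in the sources used here, and whether it is among the 24 could not be told. Nothing in the labels ties a library to an animal, so the p-values measure only the spread between these samples.

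TGF-beta is made as a latent complex, in which the growth factor is held by its own propeptide and tied to the matrix by a latent TGF-beta binding protein until integrins, proteases or thrombospondin release it. The active ligand is bound by TGFBR2, which recruits and activates TGFBR1, and this receptor phosphorylates SMAD2 and SMAD3, which enter the nucleus with SMAD4. SMAD7 is induced by the pathway and blocks the receptor, and BAMBI is a pseudoreceptor without a kinase. In the eye, TGF-beta is known for its part in wound healing, in the fibrosis of neovascular membranes and in keeping the retinal and choroidal vessels intact.

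Tgfb1 (ENSMUSG00000002603) lies on chromosome 7 from 25386390 to 25404506 on the plus strand of GRCm39, and its canonical transcript has 2215 bases in 7 exons. It was the gene of the 10 on which the laser comparison turned, so the 150 bases upstream of its transcription start are shown, 5′ to 3′ on the plus strand, from chr7:25386240-25386389. Capitals mark CCGCCC, the reverse complement of GGGCGG, the core of the GC box.
Tgfb1: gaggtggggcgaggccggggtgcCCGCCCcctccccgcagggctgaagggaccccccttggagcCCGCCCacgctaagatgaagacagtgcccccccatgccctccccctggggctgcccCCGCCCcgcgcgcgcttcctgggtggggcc

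The Tgfb1 stretch held 3 GC boxes and no match to CAGAC, the short Smad-binding motif. Over 250 bases upstream of the start, on both strands, CAGAC was found in 6 of the 10 genes and in 41.3% of 21770 promoters. GGGCGG was found in 5 of the 10 and in 36.3% of all promoters, and the AP-1 motif TGANTCA in 0 of the 10 and in 6.2%. GTCTAGAC, a palindrome bound by SMAD3 and SMAD4, was found in 1 of the 10, Smad7, and in 0.2% of all promoters. Of 75 further genes of the pathway, 37 held CAGAC, 41 GGGCGG, 5 TGANTCA and 0 GTCTAGAC. These matches describe letters in a window and were not tied to any change in expression.

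The deleted gene was compared first. Ceacam1 had 958, 5027, 1242 and 4596 normalized counts in wild type libraries 21, 22, 26 and 27 without laser, and 405, 505, 508 and 1171 in Ceacam1-/- libraries 23, 24, 25 and 28. The range with laser was 774 to 8367 in wild type (median 996) and 67.8 to 905 in Ceacam1-/- libraries (median 335). The mean levels were lower in Ceacam1-/- mice, but the genotypes overlapped in both conditions, with Ceacam1-/- library 28 above wild type library 21 without laser and Ceacam1-/- library 15 above wild type library 13 with laser. The log2 fold change was -1.95 (SE 0.60) without laser and -2.17 (SE 0.52) with laser, with adjusted p of 0.999 and 0.104 from limma with Benjamini-Hochberg adjustment over all genes tested. The unadjusted p from limma was 0.00988 without laser and 0.000593 with laser. The study checked the deletion separately, by Ceacam1 mRNA and by staining of the protein, and reported it as successful. The values here are for the whole gene, and the deleted exons were not analysed apart from the others. The highest Ceacam1 levels moved with surface epithelium markers. The sum of 6 such markers, with Krt15 the most abundant per kilobase, made up 0.442%, 1.09% and 0.268% of wild type libraries 19, 22 and 27, which had 8367, 5027 and 4596 counts of Ceacam1, and 1.58% and 1.47% of Ceacam1-/- libraries 15 and 28, which had 905 and 1171. It was at most 0.0420% of the other 19 libraries. Krt14, Krt12 and Dsg3 were at 0 in 3, 2 and 8 libraries, and the part of surface epithelium in the Ceacam1 values was not tested.

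The values were normalized counts, which the authors made from estimated reads by a scaling between libraries that leaves the differences in length between genes in place, and they summed to between 23704346 and 35094410 per library. Markers of the pigment epithelium (8 of 8, led per kilobase of transcript by Ttr), endothelium (10 of 10, led by Plvap), fibroblasts (7 of 7, led by Lum) and mural cells (8 of 8, led by Rgs5) were above 0 in every library. So were markers of photoreceptors, skeletal muscle, lens and Müller glia, so presence alone does not tell the labelled tissue from its neighbours. Some libraries stood apart by their photoreceptor markers. The sum of 10 photoreceptor markers, none of which was at 0 and of which Gnat1 was the most abundant per kilobase, made up 2.39% of wild type library 21, 2.60% of Ceacam1-/- library 23, and 4.41%, 2.33% and 4.42% of the Ceacam1-/- laser libraries 14, 15 and 18, against at most 1.05% of the other 19. The same 3 Ceacam1-/- laser libraries had little pigment epithelium, with 0.297%, 0.215% and 0.165% of their values in its markers against 0.700% to 1.29% in libraries 4, 5, 6 and 7 of that group. Endothelial markers made up 0.0416%, 0.0753% and 0.0535% of these 3 libraries, against 0.118% to 0.175% of libraries 4, 5, 6 and 7. Mural markers made up 0.0217%, 0.0325% and 0.0264%, against 0.0638% to 0.0947%. Müller glia markers made up 0.0802%, 0.0516% and 0.0944% of libraries 14, 15 and 18 and 0.0909% of library 21. These values lay within the 0.0301% to 0.157% of the libraries not rich in photoreceptor markers, while library 23 had 0.269%. Results are given with and without these 5 libraries rich in photoreceptor markers, a division made after seeing the data. In bulk tissue, fewer cells of a type and less RNA per cell cannot be told apart.

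Tgfb1 was higher with laser, and none of the other 9 genes passed the test in the 24 libraries as fitted. Tgfb1, the ligand most often tied to wounds and to leukocytes, had 339, 570, 809 and 435 normalized counts in wild type libraries 21, 22, 26 and 27 without laser. With laser, the 9 wild type libraries lay between 968 and 1856 (median 1388). The lowest library with laser was above the highest without, so the groups did not overlap. The mean was 538 ± 204 (SD, n = 4) without and 1428 ± 263 (SD, n = 9) with laser. On the log2 scale the fold change was 1.46 (SE 0.41, adjusted p = 0.0356 from limma). In this comparison 5.28% of 19950 genes were called, 4.23% higher and 1.05% lower with laser, and 4.5% were higher with laser without overlap. The call was close to its threshold. Without library 1, 3, 12, 13, 21, 22 or 27 the adjusted p from limma was 0.0541, 0.0595, 0.0595, 0.0536, 0.159, 0.0708 and 0.123, with log2 fold changes between 1.26 and 1.51. It was 0.0599 without the filter on low genes and 0.0565 with Y-linked genes as a covariate.

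The Tgfb1 values of Ceacam1-/- mice fell into separate ranges. Without laser, libraries 23, 24, 25 and 28 had 287, 646, 639 and 835 normalized counts. With laser, libraries 4, 5, 6 and 7 had 1587, 1753, 1689 and 1538, whereas libraries 14, 15 and 18, rich in photoreceptor markers, had 396, 595 and 294. These 3 libraries lay within the range without laser and the other 4 above it. Over all 7 the mean was 1122 ± 658 (SD), and the log2 fold change was 0.69 (SE 0.42, 95% interval -0.18 to 1.56, adjusted p = 0.375 from limma). With a library left out, the log2 fold change lay between 0.37 and 0.96. Averaged over the genotypes it was 1.07 (SE 0.29, adjusted p = 0.0152 from limma), a comparison in which 13.9% of the genes were called, 7.69% higher and 6.17% lower. This call held in all 13 other settings and without each of the 24 libraries in turn, where the highest adjusted p was 0.0406.

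**Figure D1:**
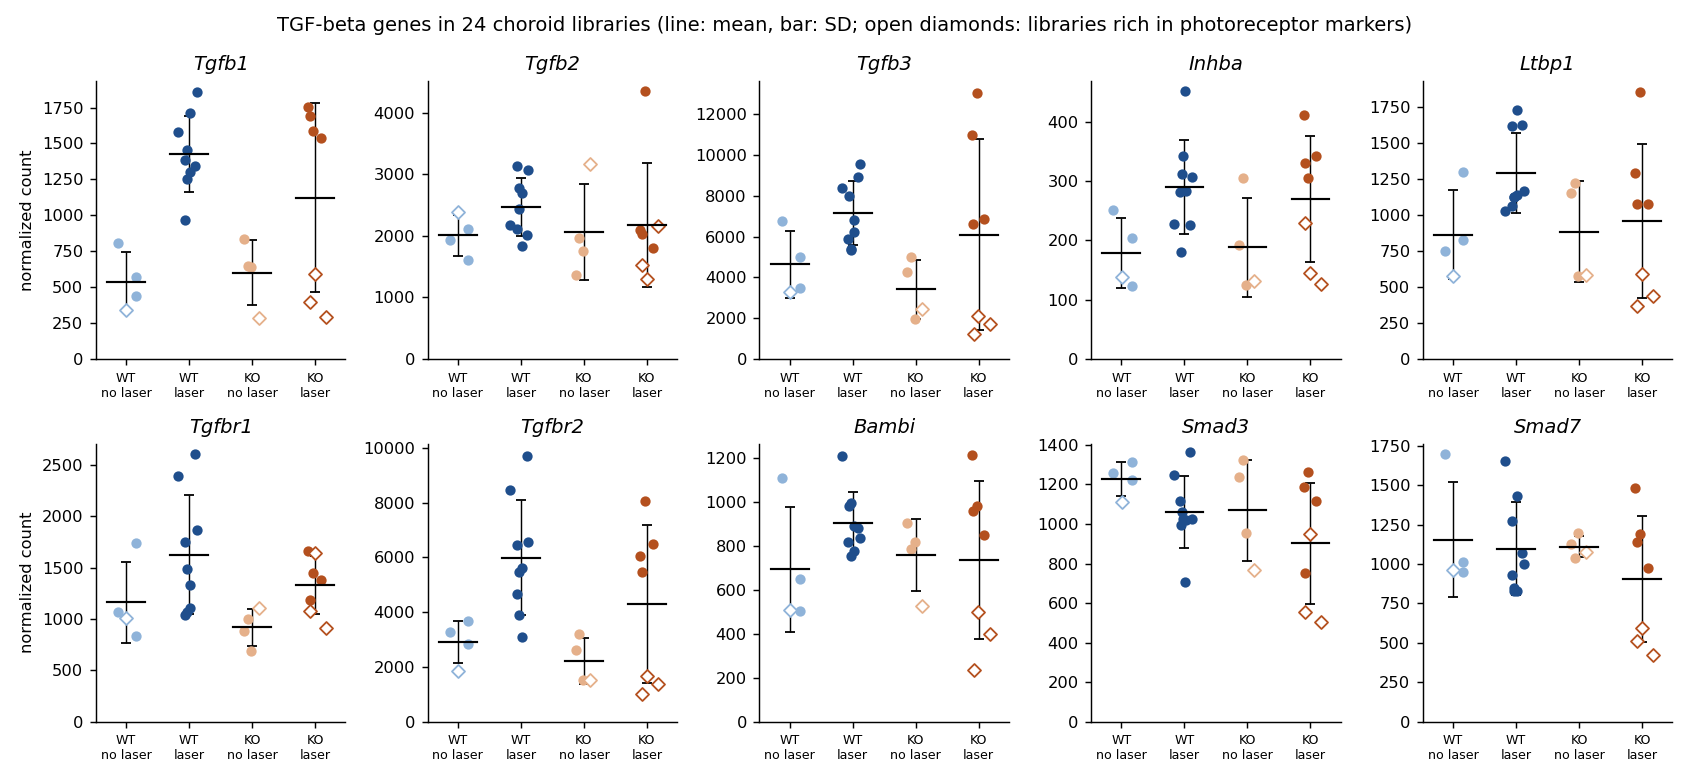
Normalized counts of the 10 genes (vertical axes, starting at 0) in wild type (WT) and Ceacam1-/- (KO) libraries without and with laser, 1 point per library, with the mean as a line and the SD as a bar, and open diamonds for the 5 libraries rich in photoreceptor markers. The 9 wild type laser libraries have 968 to 1856 counts of Tgfb1, all above the 339 to 809 without laser, and the 3 open diamonds of the Ceacam1-/- laser group lie at 294 to 595.

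Without the 5 libraries rich in photoreceptor markers, the estimated rise of Tgfb1 was close in the genotypes. It amounted to a log2 fold change of 1.26 (SE 0.18, adjusted p = 0.000170 from limma) in wild type mice and 1.22 (SE 0.21, adjusted p = 0.000682) in Ceacam1-/- mice. The difference between these changes was -0.04 (SE 0.28), against -0.77 (SE 0.59) with all libraries. Its SE leaves room for unequal changes. The division, made after seeing the data, removed the 3 of 7 Ceacam1-/- laser libraries with the lowest Tgfb1 and no wild type laser library. With all libraries in the fit and a photoreceptor score as covariate, the change in Ceacam1-/- mice was 1.23 (adjusted p = 0.0126 from limma), in a fit that called 4.83% of all genes. In the same comparisons without the 5 libraries, 8.39% and 14.9% of 19596 genes were called.

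Myeloid markers were also higher with laser. Of 10 markers, 9 were called higher with laser in wild type mice, 6 in Ceacam1-/- mice and 9 on average. The same comparisons, with all 24 libraries, called 4.23%, 2.07% and 7.69% of all genes higher. None of the 10 markers was at 0 in any library. Lyz2, which encodes lysozyme, was the most abundant per kilobase of transcript. Their sum was 0.0463% to 0.0895% of the values in wild type libraries without laser and 0.178% to 0.464% with laser. Among Ceacam1-/- libraries it was 0.0385% to 0.0607% without laser, 0.0687% to 0.121% in laser libraries 14, 15 and 18, and 0.266% to 0.365% in laser libraries 4, 5, 6 and 7. Endothelial, mural and pigment epithelium markers were also lower in laser libraries 14, 15 and 18 than in 4, 5, 6 and 7. Fibroblast markers were too, at 0.0303% to 0.0623% against 0.174% to 0.250%. Markers of skeletal muscle, lens, Müller glia and surface epithelium did not split this way, and photoreceptor markers were higher in 14, 15 and 18. The part of myeloid cells, or of any other cell type, in the Tgfb1 values was not tested.

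The other TGF-beta ligands were not called with all libraries as fitted. With array weights, another setting, Tgfb3 was called in wild type mice (log2 fold change 0.93, adjusted p = 0.0170 from limma), as were 32.6% of all genes. Tgfb3 (ENSMUSG00000021253, chromosome 12) had 3291, 5027, 6771 and 3460 normalized counts in wild type libraries 21, 22, 26 and 27, and between 5361 and 9565 (median 6836) with laser. Among Ceacam1-/- libraries it had 2444, 5027, 1964 and 4246 without laser, and 13040, 10995, 6614 and 6873 in laser libraries 4, 5, 6 and 7 but 1227, 2131 and 1731 in laser libraries 14, 15 and 18. The wild type groups overlapped through library 26 alone. The Ceacam1-/- laser libraries lay above, within and below the range without laser. With a library left out, the log2 fold change of laser against no laser in Ceacam1-/- mice lay between 0.19 and 0.76. Laser against no laser in all libraries gave a log2 fold change of 0.66 (95% interval -0.32 to 1.64) in wild type and 0.45 (-0.57 to 1.47) in Ceacam1-/- mice. Without the 5 libraries it was 0.52 (adjusted p = 0.288 from limma) and 1.37 (adjusted p = 0.00673), and 0.94 on average (adjusted p = 0.00292).

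Tgfb2 (ENSMUSG00000039239, chromosome 1), the ligand typical of the eye's neural and epithelial tissues, was not called in any comparison as fitted, although it was called in wild type mice with array weights (log2 fold change 0.49, adjusted p = 0.0473 from limma), a setting that called 32.6% of all genes there. It had 2389, 2112, 1932 and 1602 normalized counts in wild type libraries 21, 22, 26 and 27, and between 1830 and 3131 (median 2433) with laser. In Ceacam1-/- libraries 23, 24, 25 and 28 it had 3177, 1962, 1763 and 1363, and with laser between 1299 and 4358 (median 2026). All 4 groups overlapped. The log2 fold change was 0.29 (95% interval -0.21 to 0.79) in wild type and 0.05 (-0.47 to 0.57) in Ceacam1-/- mice, and in the latter it turned to -0.14 without library 4, to -0.01 without library 25 and to -0.13 without library 28. Leaving out the 5 libraries rich in photoreceptor markers gave 0.38 (adjusted p = 0.333 from limma) in wild type mice, 0.52 (adjusted p = 0.187) in Ceacam1-/- mice and 0.45 (adjusted p = 0.0599) on average.

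Inhba (ENSMUSG00000041324, chromosome 13) encodes the subunit of activin A, a relative of TGF-beta that also signals through SMAD2 and SMAD3. It had 138, 204, 251 and 123 normalized counts in wild type libraries 21, 22, 26 and 27, and between 180 and 452 (median 283) with laser. The Ceacam1-/- libraries had 131, 305, 124 and 192 without laser and between 126 and 411 (median 306) with laser. In wild type mice the median with laser was above all values without laser, and in Ceacam1-/- mice it was close to the highest of them, that of library 24, so the groups overlapped in both genotypes. The log2 fold change averaged over the genotypes was 0.60 (SE 0.23, adjusted p = 0.0785 from limma), and 0.72 without the 5 libraries (adjusted p = 0.0173).

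Ltbp1 (ENSMUSG00000001870, chromosome 17), which ties latent TGF-beta to the matrix, had between 574 and 1298 normalized counts in wild type mice without laser and between 1027 and 1729 with laser. The Ceacam1-/- range was between 580 and 1222 without laser and between 369 and 1858 with laser. Its log2 fold change was 0.62 (SE 0.34) in wild type and -0.00 (SE 0.35) in Ceacam1-/- mice, where it was 0.47 without the 5 libraries (adjusted p = 0.277 from limma).

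Both signalling receptors had higher means with laser, without a call in all libraries as fitted. Other settings with all 24 libraries called them on average. Tgfbr2 had an adjusted p from limma of 0.0329 with the photoreceptor score (19.7% of all genes called) and 0.0274 with a skeletal muscle score (17.5%). Tgfbr1 had 0.0483 with quantile normalization (12.8%) and 0.0448 with upper-quartile scaling (13.6%). Array weights called both (35.5%). Tgfbr2 (ENSMUSG00000032440, chromosome 9), which binds the ligand, had 1860, 3675, 3274 and 2838 normalized counts in wild type libraries 21, 22, 26 and 27, and between 3099 and 9710 (median 5615) with laser. Ceacam1-/- libraries 23, 24, 25 and 28 had 1537, 3211, 1521 and 2630. Laser libraries 4, 5, 6 and 7 had 8037, 6058, 5456 and 6473, and laser libraries 14, 15 and 18 had 1003, 1663 and 1393. Only 1 of the 9 wild type laser libraries lay within the range without laser, while the Ceacam1-/- laser libraries split as they did for Tgfb1 and Tgfb3. Their endothelial and mural markers split in the same way, and the part of these cells in the Tgfbr2 values was not tested. The log2 fold change was 1.00 (SE 0.45, adjusted p = 0.215 from limma) in wild type, 0.63 (SE 0.47, adjusted p = 0.476) in Ceacam1-/- mice and 0.82 (SE 0.33, adjusted p = 0.103) on average. Without the 5 libraries it was 0.80 (adjusted p = 0.0836), 1.46 (adjusted p = 0.00410) and 1.13 (adjusted p = 0.000623).

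Tgfbr1 (ENSMUSG00000007613, chromosome 4), the kinase that phosphorylates the Smads, had 1008, 1737, 1069 and 831 normalized counts in wild type libraries 21, 22, 26 and 27, and between 1037 and 2611 (median 1484) with laser. The Ceacam1-/- values were 1104, 997, 688 and 887 without laser and between 913 and 1660 (median 1385) with laser. Library 15, rich in photoreceptor markers, had 1646 and so was among the highest of its group. The log2 fold change was 0.47 (SE 0.24) in wild type and 0.53 (SE 0.25) in Ceacam1-/- mice, and 0.50 on average (SE 0.18, adjusted p = 0.0639 from limma). Without the 5 libraries the average was 0.57 (adjusted p = 0.0479).

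The genes that transmit or restrain the signal were not called as fitted. Array weights called Bambi in wild type mice (log2 fold change 0.64, adjusted p = 0.0120 from limma), where they called 32.6% of all genes. Bambi (ENSMUSG00000024232, chromosome 18) had a log2 fold change of 0.45 (SE 0.32, adjusted p = 0.437 from limma) in wild type and -0.21 (SE 0.33, adjusted p = 0.761) in Ceacam1-/- mice. Smad3 (ENSMUSG00000032402, chromosome 9) had -0.22 (95% interval -0.67 to 0.23) and -0.29 (-0.76 to 0.18). Smad7 (ENSMUSG00000025880, chromosome 18) had -0.07 (-0.64 to 0.50) and -0.43 (-1.02 to 0.16). Smad3 had 1109, 1223, 1256 and 1314 normalized counts in wild type libraries 21, 22, 26 and 27, the smallest spread of the 10 genes in that group in relation to its mean, and between 707 and 1363 (median 1026) with laser. Smad7 had between 827 and 1650 (median 1002) in wild type libraries with laser, against 948 to 1698 without. The intervals of Smad3 and Smad7 reach to both sides of 0. The changes in Ceacam1-/- mice, without the 5 libraries rich in photoreceptor markers, turned to 0.25 (SE 0.22) for Bambi and 0.079 (SE 0.25) for Smad7, while Smad3 was at -0.13 (SE 0.20).

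**Figure D2:**
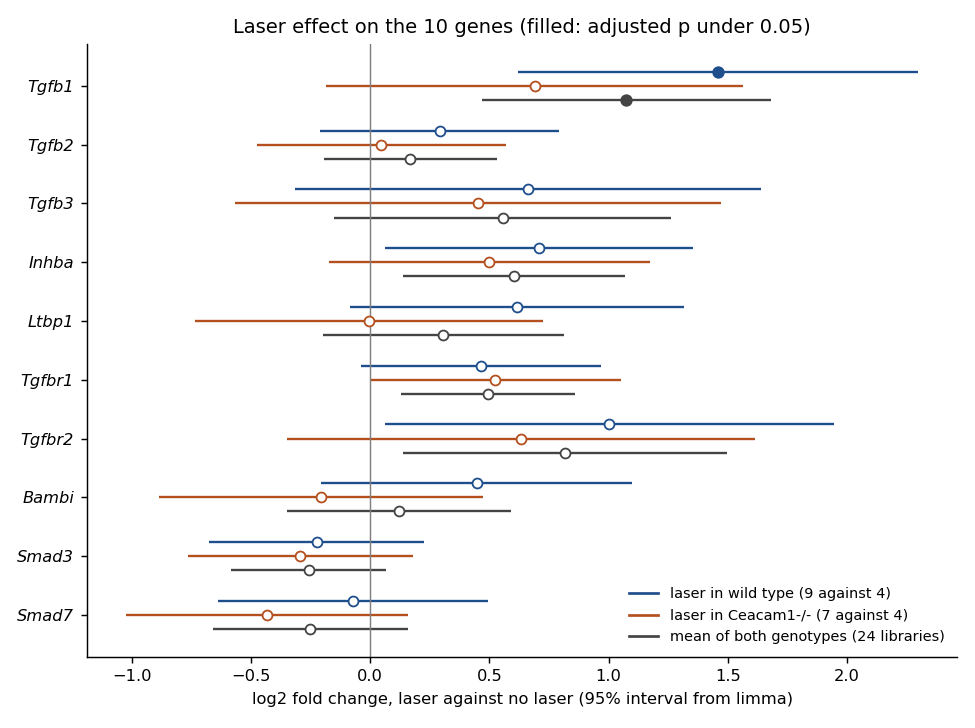
Log2 fold change of laser against no laser (horizontal axis) for the 10 genes, in wild type mice, in Ceacam1-/- mice and as the mean of both, with 95% intervals from limma and filled points where the adjusted p was under 0.05. Only Tgfb1 has filled points, at 1.46 in wild type mice and 1.07 on average, and the intervals of Smad3 and Smad7 include 0 in all comparisons.

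In all, 8 of the 10 genes had a positive log2 fold change with laser in wild type mice and 6 of 10 in Ceacam1-/- mice. The median over the 10 genes was 0.54 and 0.25, beside -0.10 and 0.02 over all genes tested. Of the genes tested, 42.1% were positive in wild type and 51.2% in Ceacam1-/- mice. Of the 10 genes, 0 were called by limma in Ceacam1-/- mice, in a comparison that called 3.72% of 19950 genes, and none of the 10 had an unadjusted p under 0.05, against 20% of all genes. Without the 5 libraries, 1 of 10 was called in wild type mice, 3 in Ceacam1-/- mice (Tgfb1, Tgfb3 and Tgfbr2) and 5 on average (those 3, Inhba and Tgfbr1), beside 8.39%, 14.9% and 24.9% of 19596 genes.

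**Figure D3:**
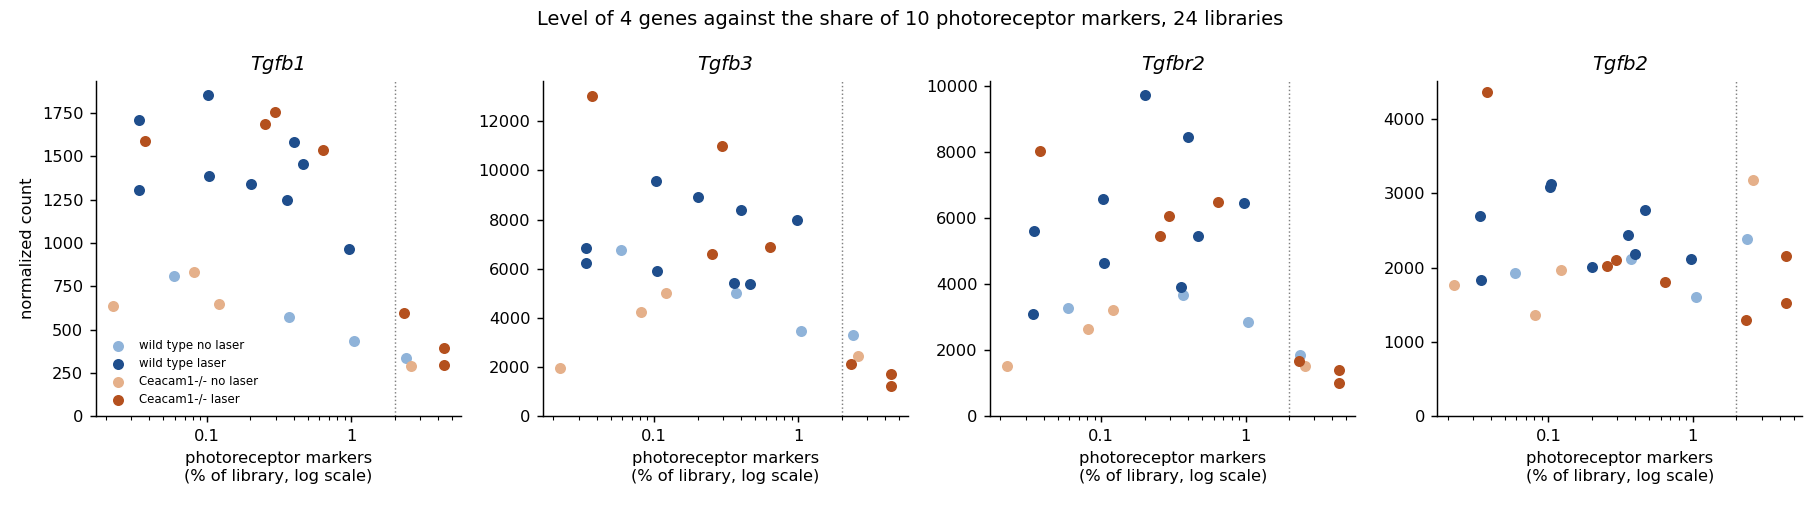
Normalized counts of Tgfb1, Tgfb3, Tgfbr2 and Tgfb2 (vertical axes) against the share of 10 photoreceptor markers in each of the 24 libraries (horizontal log axis, percent of the library's summed values), coloured by group, with a dotted line at 2%. Right of the line lie 5 libraries with Tgfb1 of 287 to 595, Tgfb3 of 1227 to 3291 and Tgfbr2 of 1003 to 1860 counts, while their Tgfb2 spans 1299 to 3177. Left of it, Ceacam1-/- library 25, with the smallest share (0.0222%), has similarly low Tgfb3 (1964) and Tgfbr2 (1521), and wild type library 27 has 435 counts of Tgfb1.

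Genotype was compared next, which is the question the study asked of the choroid. The study's own model, with sex as a covariate, called few genes without laser and was not run here. Of the 10 genes, 0 were called between Ceacam1-/- and wild type mice with or without laser, and 0 for the interaction of laser and genotype. The comparisons called 4 of 19757 genes with laser (0.0202%), 0 of 20057 without laser (0%) and 0 of 19950 for the interaction (0%). At an unadjusted p under 0.05 they had 4479 (22.7%), 307 (1.53%) and 1241 genes (6.22%), among them 1, 0 and 0 of the 10. Without laser the log2 fold changes of the 10 genes lay between -0.48 and 0.18, with a median of -0.01. The lowest p was that of Tgfb3, with a log2 fold change of -0.48 (95% interval -1.30 to 0.34, adjusted p = 0.999 from limma). For Tgfb1 it was 0.14 (-0.74 to 1.01).

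With laser, all 10 genes had lower means in Ceacam1-/- mice. The log2 fold changes lay between -0.79 and -0.17, with a median of -0.42 beside 0.01 over all genes tested. Ltbp1 had the lowest p, with a log2 fold change of -0.61 (95% interval -1.21 to -0.01, adjusted p = 0.216 from limma), and Tgfb1 had -0.63 (-1.37 to 0.10, adjusted p = 0.276). Without the libraries rich in photoreceptor markers, Ltbp1 was at 0.03 (SE 0.18) and Tgfb1 at 0.22 (SE 0.15), and Tgfb3 and Tgfbr2 were at 0.36 and 0.19. Tgfbr1 and Tgfb2 stayed below 0, at -0.13 (SE 0.24) and -0.016 (SE 0.21), and the other 4 genes lay between 0.015 and 0.30. All of the rich libraries with laser belong to the Ceacam1-/- group. For the interaction, Bambi had the lowest p, with -0.65 (95% interval -1.59 to 0.29, adjusted p = 0.641 from limma), and this was -0.07 without the 5 libraries. The largest of the 10 interactions without the 5 libraries were those of Tgfb3, at 0.85 (SE 0.43, adjusted p = 0.865 from limma), and Tgfbr2, at 0.66 (SE 0.42, adjusted p = 0.865).

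Ratios of a pair of genes within a library do not depend on the scaling of that library. In wild type mice the log2 ratio of Tgfb1 to Tgfb2 was -1.96 ± 0.64 (SD, n = 4) without laser and -0.79 ± 0.35 (SD, n = 9) with laser. All 9 laser libraries lay above all 4 without laser. The difference was 1.17 (two-sided exact permutation test, p = 0.00140, the smallest that 715 splits allow, and 0.00839 adjusted over 6 ratio tests). The log2 ratio of Tgfbr2 to Tgfbr1 rose from 1.34 ± 0.42 (SD, n = 4) to 1.88 ± 0.19 (SD, n = 9), a difference of 0.54 (exact permutation p = 0.0126, adjusted p = 0.0378). This call was not firm. Without the library rich in photoreceptor markers the difference was 0.39, with an exact permutation p of 0.0409 before any adjustment over the 6 tests. The ratio of the inhibitor Smad7 to the transducer Smad3 differed by 0.15 (exact permutation p = 0.566, adjusted p = 0.727).

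The same ratios differed in Ceacam1-/- mice by 0.64 for Tgfb1 to Tgfb2 (exact permutation p = 0.361), 0.11 for Tgfbr2 to Tgfbr1 (exact permutation p = 0.864) and -0.14 for Smad7 to Smad3 (exact permutation p = 0.606). Their adjusted p were 0.721, 0.864 and 0.727. The difference for Tgfb1 to Tgfb2 fell to 0.092 without library 23 and rose to 1.01 without library 28. That for Tgfbr2 to Tgfbr1 turned negative without library 4, 6, 7 or 23, to between -0.14 and -0.038, and reached 0.35 without library 14. The spread among the 7 laser libraries was wide, with an SD of 1.01 for Tgfb1 to Tgfb2 and 1.12 for Tgfbr2 to Tgfbr1. Without the libraries rich in photoreceptor markers the differences were 0.88, 0.39 and 0.13 in wild type and 0.70, 0.73 and 0.21 in Ceacam1-/- mice. Whether the ratios changed differently in the genotypes was not tested.

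**Figure D4:**
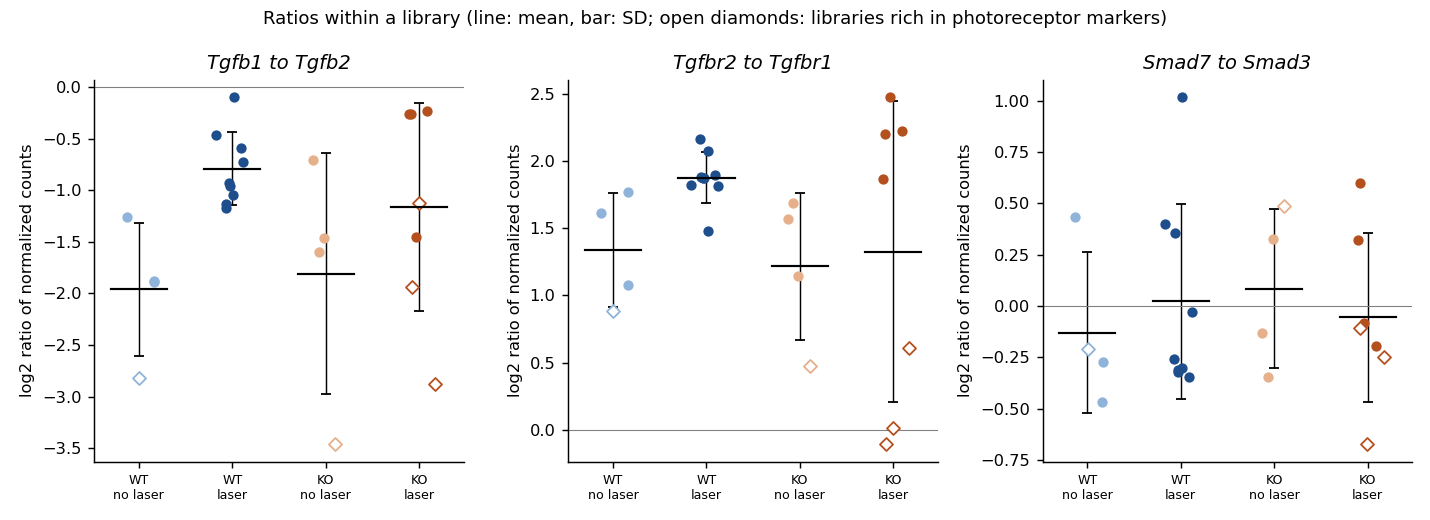
Log2 ratio of normalized counts of 3 gene pairs (vertical axes, not corrected for transcript length) in wild type (WT) and Ceacam1-/- (KO) libraries, 1 point per library, with the mean as a line, the SD as a bar and open diamonds for the libraries rich in photoreceptor markers. All 9 wild type laser libraries lie above the 4 without laser for Tgfb1 to Tgfb2, and the 3 open diamonds of the Ceacam1-/- laser group are the lowest of that group for Tgfbr2 to Tgfbr1.

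Levels of the 10 genes were compared with each other per kilobase of the canonical transcript. On that scale Tgfb3 was the highest of the 10 and Inhba the lowest in all 4 groups. Tgfb3 had 1117 ± 391 normalized counts per kilobase (SD, n = 4) in wild type mice without laser and 1727 ± 380 (SD, n = 9) with laser, and Inhba had 29.7 ± 9.9 and 48.2 ± 13.1. Tgfb1 had 243 ± 92.1 and 645 ± 119, and went from the fifth to the third place in the order. Tgfb2 had 384 ± 63.1 and 473 ± 90.1, and went from the second place to below Tgfb1. Per kilobase, Tgfb1 was above Tgfb2 in 0 of 4 wild type libraries without laser and in 9 of 9 with laser, and in 1 of 4 and 4 of 7 Ceacam1-/- libraries.

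Among the 3 TGF-beta ligands, Tgfb3 held most of the transcript in each group. Its share per kilobase was 63.1% ± 5.18 (SD, n = 4) in wild type mice without laser, 60.3% ± 6.19 (SD, n = 9) with laser, 53.4% ± 11.2 (SD, n = 4) in Ceacam1-/- mice without laser and 55.3% ± 11.7 (SD, n = 7) with laser, so neighbouring groups differed by less than their spread. The share of Tgfb1 was 13.7% ± 1.99 in wild type mice without laser and 22.8% ± 3.60 with laser, with ranges of 10.9% to 15.4% and 15.8% to 27.9% that did not overlap. The Ceacam1-/- share was 18.6% ± 7.36 and 21.8% ± 5.48, with ranges that overlapped. Ordered by its mean normalized count, Tgfb1 was highest in wild type laser (1428), then Ceacam1-/- laser (1122), Ceacam1-/- without laser (602) and wild type without laser (538). The first and second of this order differed by less than the SD of the Ceacam1-/- laser group, and the other two by less than the SD of either group.

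The wider pathway was described with 75 further genes grouped by role, of which 74 were tested and Nodal was too low. With laser, 12 rose and 1 fell in wild type mice, 3 rose and 1 fell in Ceacam1-/- mice, and 16 rose and 2 fell on average. The same comparisons called 4.23%, 2.07% and 7.69% of all genes higher, and 1.05%, 1.65% and 6.17% lower. The median log2 fold change of the 74 was 0.40, 0.09 and 0.18, beside -0.10, 0.02 and -0.04 over all genes. Without the 5 libraries rich in photoreceptor markers, 17 rose and 1 fell in wild type, 22 rose and 5 fell in Ceacam1-/- mice, and 33 rose and 5 fell on average, beside 5.76%, 8.66% and 13.5% of all genes called higher and 2.63%, 6.26% and 11.4% called lower.

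**Figure D5:**
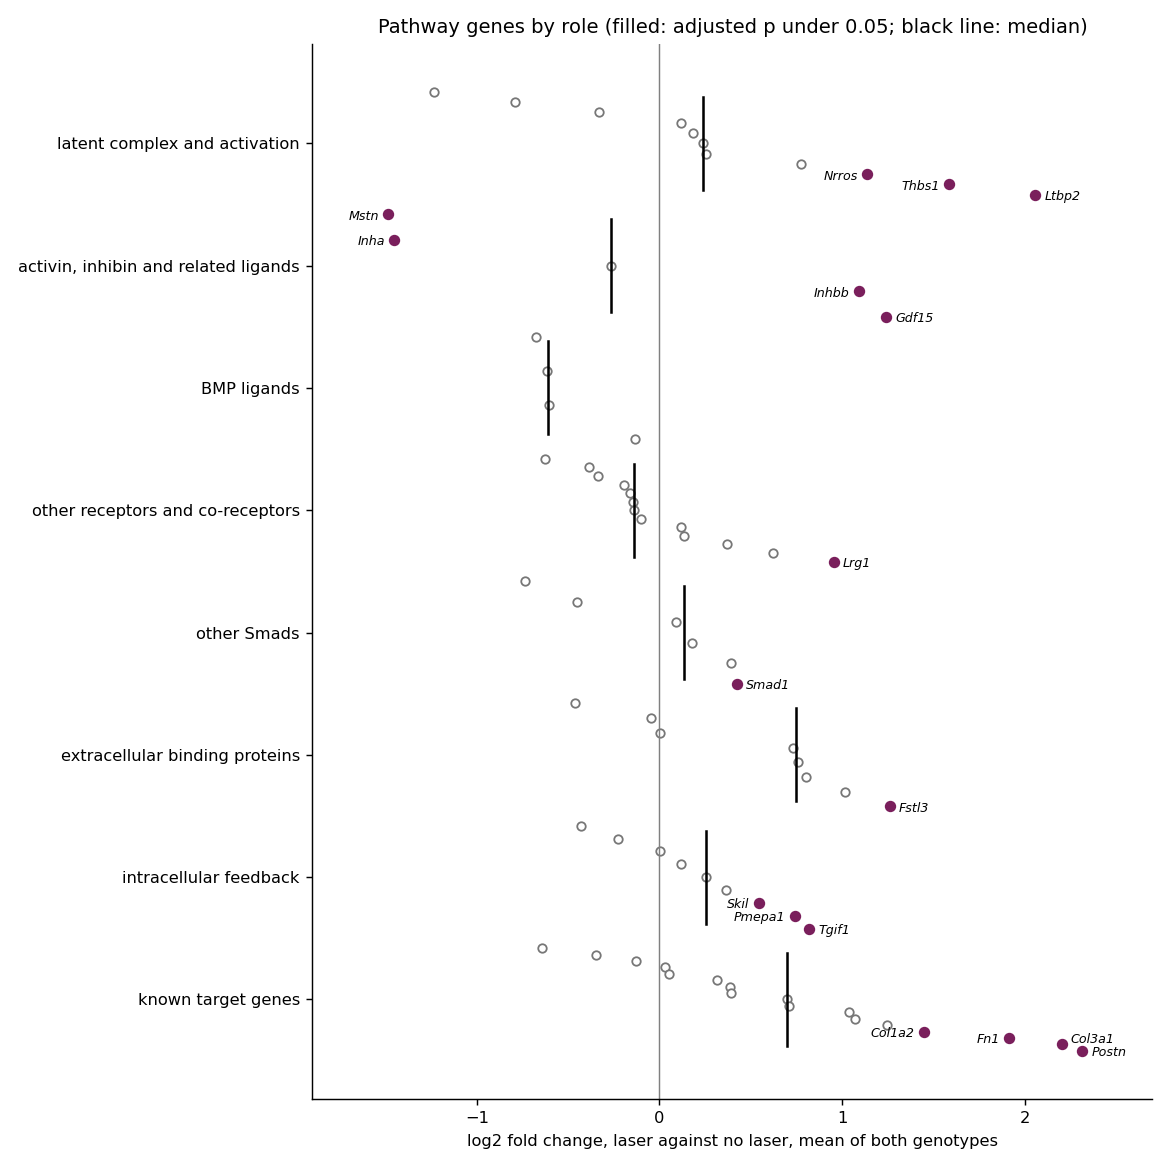
Log2 fold change of laser against no laser, as the mean of both genotypes (horizontal axis), for 73 of the 74 tested genes of the wider pathway, 1 point per gene in rows by role, with filled named points where the adjusted p was under 0.05 and a black line at the median of the points of each role. The 4 filled target genes lie between 1.45 and 2.32, and no BMP ligand is filled.

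Of 18 known target genes, 5 rose on average, 4 in wild type and 2 in Ceacam1-/- mice. Without the 5 libraries rich in photoreceptor markers, 11 rose on average, 5 in wild type and 8 in Ceacam1-/- mice. In these fits 13.5%, 5.76% and 8.66% of all genes were called higher. Postn, which encodes the matricellular protein periostin, had between 742 and 1931 without laser and between 4642 and 36299 (median 15107) with laser in wild type mice. Its log2 fold change was 3.25 (SE 0.57) in wild type, where it was called, and 1.39 (SE 0.59, adjusted p = 0.187 from limma) in Ceacam1-/- mice. It was called in both without the 5 libraries rich in photoreceptor markers, with 2.95 (SE 0.47, adjusted p = 0.000455 from limma) and 2.06 (SE 0.54, adjusted p = 0.0138).

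The matrix genes Fn1 (fibronectin), Col3a1 and Col1a2 (fibrillar collagens) rose by 1.92, 2.20 and 1.45 on average, and Fn1 was also called in each genotype, with 2.10 in wild type and 1.73 in Ceacam1-/- mice. All 3 were called in each genotype without the 5 libraries, with 1.83, 2.28 and 1.19 in wild type and 2.42, 2.74 and 2.32 in Ceacam1-/- mice. Fn1 had between 1406 and 3287 normalized counts in wild type mice without laser and between 5838 and 17296 with laser. Fibroblast markers were examined beside the matrix genes. Of 7 fibroblast markers, none at 0 in any library, 1 was called higher in each laser comparison. This stands beside 4.23%, 2.07% and 7.69% of all genes in wild type mice, in Ceacam1-/- mice and on average. A positive log2 fold change was seen in 6, 4 and 5 of the 7 markers. Their sum was 0.0365% to 0.0768% of the values in wild type libraries without laser and 0.104% to 0.190% with laser, with no overlap. Among Ceacam1-/- libraries it was 0.0280% to 0.0895% without laser, 0.0303% to 0.0623% in laser libraries 14, 15 and 18, and 0.174% to 0.250% in laser libraries 4, 5, 6 and 7. The part of fibroblasts in these values was not tested. Id1, Id2 and Id3, targets of BMP receptors, had average log2 fold changes of -0.35, -0.64 and 0.05 and were not called.

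Of 11 genes of latency and activation, 3 rose on average and in wild type mice. Ltbp2, a matrix relative of Ltbp1 that does not bind latent TGF-beta, had between 221 and 806 normalized counts in wild type mice without laser and between 893 and 2319 with laser, with no overlap. Its log2 fold change was 1.95 (SE 0.54) in wild type and 2.17 (SE 0.56) in Ceacam1-/- mice, and it was called in both (adjusted p = 0.0333 and 0.0316 from limma). Nrros, which holds latent TGF-beta on microglia and macrophages, rose by 1.53 in wild type mice, from 194 to 540 normalized counts without laser to between 641 and 1032 with laser. Thbs1, which encodes thrombospondin-1, an activator of latent TGF-beta, rose by 1.93. Their log2 fold changes in Ceacam1-/- mice were 0.74 (adjusted p = 0.226 from limma) and 1.23 (adjusted p = 0.126). Both were called there without the 5 libraries, with 1.13 (adjusted p = 0.00201 from limma) and 1.70 (adjusted p = 0.00497), beside 1.33 and 1.83 in wild type mice. The integrin genes Itgav, Itgb6 and Itgb8 were not called, with averages of 0.18, -1.23 and -0.79. Itgb6, a subunit of an integrin that activates latent TGF-beta, was called lower without the 5 libraries, by -2.25 (SE 0.46, adjusted p = 0.00270 from limma) in Ceacam1-/- mice and -1.53 (adjusted p = 0.00111) on average, with -0.82 (adjusted p = 0.236) in wild type mice. Surface epithelium markers made up 0.00230%, 0.00887% and 1.47% of Ceacam1-/- libraries 24, 25 and 28 without laser. They made up 0.000437% to 0.0298% of laser libraries 4, 5, 6 and 7. Their part in the fall of Itgb6 was not tested.

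Among 5 tested activin, inhibin and related ligands, 2 rose and 2 fell on average. Inhbb, the other activin subunit, rose by 1.09 and Gdf15, a stress-induced cytokine, by 1.24. Inha, whose product turns activin subunits into the antagonist inhibin, fell by 1.45 on average and was called in both genotypes. It had between 231 and 569 normalized counts in wild type mice without laser and between 93.0 and 234 with laser, which overlapped, and between 165 and 562 and between 102 and 232 in Ceacam1-/- mice. Mstn (myostatin), made by skeletal muscle, fell by 1.49. Of 10 skeletal muscle markers, led per kilobase by Tnnc2, 7 were called lower on average, beside 6.17% of all genes. Within wild type mice 0 were called, and within Ceacam1-/- mice 0. Their sum was 1.80% to 3.12% of the values in wild type libraries without laser and 0.483% to 1.69% with laser. In Ceacam1-/- libraries it was 0.315% to 4.10% without and 0.0760% to 1.24% with laser. None of the 10 was at 0, and their part in the fall of Mstn was not tested.

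Of the BMP ligands Bmp2, Bmp4, Bmp6 and Bmp7, 0 of 4 were called by limma, with average log2 fold changes between -0.68 and -0.14, and 2 of 4 had an unadjusted p under 0.05, against 27.4% of all genes tested. Leaving out the 5 libraries gave averages between -0.44 for Bmp4 and 0.23 for Bmp2, again with 0 of 4 called. The receptors and co-receptors held 1 call in 13: Lrg1, a secreted glycoprotein that modifies TGF-beta signalling in endothelium, rose by 0.95. Of 6 other Smads, Smad1, a transducer of BMP signals, rose by 0.43. Of 8 extracellular binding proteins, Fstl3, an activin trap, rose by 1.26, from between 198 and 527 normalized counts to between 533 and 1315 in wild type mice. Of 9 intracellular feedback genes, 3 rose on average: Tgif1 and Skil, transcriptional repressors that act on Smads, by 0.82 and 0.54, and Pmepa1, a target that dampens Smad activation, by 0.74. The inhibitory Smad6, which mainly restrains BMP signals, had -0.74 (adjusted p = 0.159 from limma).

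More members of these roles passed the test without the 5 libraries, in both directions, as did more of all genes (13.5% higher and 11.4% lower on average). On average, 6 of 11 genes of latency and activation rose and 1 fell, 3 of 13 receptors and co-receptors rose and 1 fell, 2 of 6 other Smads rose, 4 of 8 binding proteins rose and 1 fell, and 5 of 9 feedback genes rose. Smad2, which transmits TGF-beta and activin signals, was called higher in Ceacam1-/- mice, with 0.98 (SE 0.28, adjusted p = 0.0234 from limma), beside 0.12 (adjusted p = 0.818) in wild type mice. Acvr1, a type I receptor of BMP and activin ligands, was also called higher there, with 0.65 (adjusted p = 0.0160 from limma). The activin receptor gene Acvr2b and Fst, which encodes the activin trap follistatin, were called lower there, with -0.91 (adjusted p = 0.0482 from limma) and -0.68 (adjusted p = 0.0467). No interaction of laser and genotype was called among them, with an adjusted p from limma of at least 0.865 for each of the pathway genes.

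The 10 genes varied together to different degrees. Over the 24 libraries, with group means removed from the log2 values, Tgfb3 and Tgfbr2 had a Pearson's r of 0.93, Tgfb1 and Tgfb3 0.85, Bambi and Smad7 0.85, and Tgfb2 and Tgfbr1 -0.00. These are descriptions over libraries that share their tissue composition, including the 5 rich in photoreceptor markers. The most alike genes were ranked by Pearson's r of the log2 values over the 24 libraries with the group means left in, so differences between groups add to these values. For Tgfb1, among the other genes tested, they were Col4a1 (a basement membrane collagen, r = 0.977), Ifnar2 (an interferon receptor chain, r = 0.965) and Gm12840 (r = 0.964). For Tgfbr2 they were Poglut3 (r = 0.974), Abca9 (r = 0.966) and Nid1 (nidogen, a basement membrane protein, r = 0.961). For Smad7 they were Smad6 (r = 0.932), Id2 (r = 0.914) and Smoc1 (an extracellular BMP antagonist, r = 0.911). For Inhba they were Poglut2 (r = 0.879), Gm15867 (r = 0.878) and Pkib (a protein kinase A inhibitor, r = 0.858).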

How the data were processed

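Per the labels and the study's methods, RNA of choroidal tissue was reverse transcribed in SMART-Seq libraries, and the authors quantified reads with salmon 1.10.3 against GRCm39 and normalized them in DESeq2 1.44.0 after import through tximport, which adjusts each gene for its transcript length in one library against another but not for length between genes. The deposited signal values are these normalized counts, and between 31.6% and 73.9% of low values lay within 5% of a whole multiple of 1 read, so reads were not recovered and no count model was run. The study's model had sex as a covariate, which the labels do not give. Here log2 of the value plus 1 entered limma (version 3.58.1, under R 4.3.3) with a variance trend, over genes with a mean of at least 10 in the libraries of the fit, with Benjamini-Hochberg adjustment and a threshold of 0.05. Laser was compared in all 24 libraries and genotype within the 16 libraries with laser and the 8 without. Each library carries a number of its own, taken from the labels. Fold changes understate those of low genes. Ratios were tested by two-sided exact permutation. GENCODE vM39 gave symbols for 99.1% of gene identifiers. The method was tested on simulated counts drawn without differences in tissue composition between libraries, so that test does not cover such differences.

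The 10 genes, the pathway roles and the marker lists were chosen with earlier results of these data known. All 10 genes were named, pathway genes past the threshold in a laser comparison and the lowest p of each role were named, and of the marker lists the most abundant gene per kilobase of canonical transcript, except 1 pathway gene, which is counted in its list but not reported here. Some integrin genes, Id1, Id3, Bmp2, Bmp6, Smad2, Acvr1, Acvr2b and Fst were named after their values were seen. Of the remaining marker lists, endothelium, mural cells, pigment epithelium, photoreceptors, Müller glia (led per kilobase by Glul), lens (led by Cryaa) and surface epithelium had 0 genes called by limma in any laser comparison. Alternatives were other pseudocounts, filters, normalizations, variance options, array weights, covariates and sets of libraries.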

Additional observations from a re-analysis of the deposited data

Results flagged for a closer look

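Among 40 sets of values (10 genes in 4 groups), 2 held a library far from the others of its group, where chance alone gives about 1 in 20. Tgfb2 had 4358 normalized counts in Ceacam1-/- laser library 4, against 1299 to 2160 in the other 6 libraries of that group. Smad7 had 1698 normalized counts in wild type library 26 without laser, against 948 to 1011 in the other 3.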

How the results depend on the processing

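No paired analysis was possible because each library has a number of its own and no group shares numbers with another. Tgfb1 was called on average over the genotypes in every setting and without each library. The share of all genes called in each setting stands in brackets. In wild type mice (5.28% as reported) 0 of the 10 genes were called without a filter (1.95%) or with the Y-linked covariate (3.97%), 2 with the muscle score (Tgfb1 and Ltbp1, 17.6%), 2 with wild type libraries alone in the fit (Tgfb1 and Tgfbr2, 11.6%) and 8 with array weights (all but Smad3 and Smad7, 32.6%), and 0 to 1 with a library left out (2.4% to 5.83%). In Ceacam1-/- mice (3.72% as reported) 1 was called with the photoreceptor score (4.83%), 2 with array weights (Tgfb1 and Tgfbr2, 17.8%) and 3 without the 5 libraries (14.9%), and 0 with any library left out (0.742% to 12.5%, the highest without library 23). On average (13.9% as reported) 2 were called with quantile normalization (12.8%) or upper-quartile scaling (13.6%; Tgfb1 and Tgfbr1 in both), 3 with the photoreceptor score (19.7%), 4 with the muscle score (17.5%), 5 without the 5 libraries (24.9%) and 6 with array weights (35.5%), and 1 to 3 with a library left out (10.2% to 16.8%). Tgfbr1 was then added without library 1, 2, 17, 18, 22 or 23 (adjusted p from limma of 0.0461, 0.0473, 0.0463, 0.0399, 0.0285 and 0.0482), Inhba without 15, 18 or 24 (0.0451, 0.0303 and 0.0389) and Tgfbr2 without 14 (0.0276). Array weights turned the log2 fold change of Smad7 to 0.038 in wild type, 0.0087 in Ceacam1-/- mice and 0.024 on average, that of Tgfb3 between genotypes without laser to 0.083, and in Ceacam1-/- mice that of Ltbp1 to 0.13 and Bambi to 0.21. In Ceacam1-/- mice Ltbp1 and Bambi turned to 0.36 and 0.14 with the photoreceptor score, 0.60 and 0.26 with the muscle score, and 0.47 and 0.25 without the 5 libraries, where Smad7 turned to 0.079. With a library left out, Ltbp1 there lay between -0.20 and 0.19, Bambi between -0.37 and 0.036, Tgfb2 between -0.14 and 0.28, and Smad7 in wild type between -0.15 and 0.13 (0.13 without library 26). The interaction of Tgfb1 turned to 0.13 and its genotype difference without laser to -0.19 with the photoreceptor score, the latter lying between -0.061 and 0.46 with a library left out. With laser, the genotype differences of Tgfb1 and Ltbp1 turned to 0.22 and 0.032 without the 5 libraries. In Ceacam1-/- mice the ratio of Tgfb1 to Tgfb2 lay between 0.092 and 1.01 and that of Tgfbr2 to Tgfbr1 between -0.14 and 0.35 with a library left out, and that of Smad7 to Smad3 turned to 0.21 without the 5 libraries. The cause of these shifts was not tested. Read depth per gene cannot be had from normalized counts, and the groups of 4 libraries without laser limit all comparisons.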

Other observations

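Tgfb1 and the deleted Ceacam1 lie on the same chromosome. Ceacam1 ends at 25177257 on chromosome 7 of GRCm39, and 209132 bases and 8 protein-coding genes separate it from Tgfb1.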
